A study of Mus musculus with 2 samples.

Results

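The genes described here are 10 effector and secreted products of Sertoli cells, the supporting cells of the foetal testis: *Amh*, *Ptgds*, *Gdnf*, *Clu*, *Cst9*, *Aard*, *Mro*, *Hsd17b1*, *Hsd17b3* and *Cldn11*. They were chosen by name, with earlier results of these data known. Each symbol was matched to 1 Ensembl identifier of the gene count table, and the members are 10 of 42422 genes in that table. All 10 passed the filter on low counts, as did 15125 genes in all. Counts came from gonadal somatic cells of E12.5 mouse embryos from Swiss females crossed with males that carry Oct4-eGFP on a 129svJT2 background, in which germ cells carry GFP, so the GFP-negative cells sorted from gonads freed of mesonephros are a mixture of all somatic cell types and not sorted Sertoli cells. The 40 libraries, each from several pooled gonads, fell into 10 groups of 4. XX and XY cells were taken before culture (0 h) or after gonad culture for 24 h or 72 h with the vehicle DMSO, and XY gonads were also cultured for 24 h or 72 h with 500 nM PD0325901, an inhibitor of MEK1/2 (MEKi), or 500 nM BGJ398, an inhibitor of FGF receptors (FGFRi). The labels name no allele beyond the reporter, and XX gonads were not cultured with an inhibitor in these libraries.

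Sertoli cells arise in the XY gonad when SRY switches on *Sox9*. They then enclose the germ cells in cords and send out signals that shape the male reproductive tract, the germ cells and the Leydig cells. AMH causes the Müllerian ducts to regress, prostaglandin D synthase makes a prostaglandin that helps spread *Sox9* expression between cells, and GDNF acts on germ cells through GFRA1 and RET. FGF9 signalling, which MEK1/2 transmits among other signals, is known to help keep the testis programme active in XY gonads.

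The libraries read the 3′ ends of transcripts and carried unique molecular identifiers (UMIs), so that amplified copies of a molecule count once. The totals were 1380707 to 4836550 counts per library, with a median of 2248854. Levels are given as CPM, counts relative to a fixed library size, with library sizes scaled by the trimmed mean of M-values (TMM), and levels of different genes were not compared. *Xist* had 1090 to 2427 counts in XX and 0 to 14 in XY libraries, and *Ddx3y* had 0 to 3 in XX and 65 to 253 in XY libraries. The libraries were made in a pair of pools. The first held the uncultured groups, both DMSO groups at 24 h and MEKi at 24 h, and the second held FGFRi at 24 h and every group at 72 h. Levels at 72 h and 24 h, and FGFRi and DMSO at 24 h, therefore differ in pool as well as in time or treatment, these cannot be told apart, and such values are set side by side without a test. MEKi replicate M2 at 24 h was placed by its name in the count table, since the study's list of libraries leaves it out. The genes *Sox9*, *Nr5a1*, *Wt1* and *Gata4* had counts in every library of both sexes.

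Before the values, 4 promoter stretches are shown for members whose levels carry the results below: *Cst9* and *Gdnf*, which fell with MEKi, *Cldn11*, which was higher with both inhibitors, and *Ptgds*. Each holds the 250 bases before a gene start in RefSeq's table for GRCm38.p6, read 5′ to 3′ on the strand of the gene. Capitals mark a match to a motif of the GATA or the SOX family.
*Cst9* (chr2:148834897-148835146, plus strand): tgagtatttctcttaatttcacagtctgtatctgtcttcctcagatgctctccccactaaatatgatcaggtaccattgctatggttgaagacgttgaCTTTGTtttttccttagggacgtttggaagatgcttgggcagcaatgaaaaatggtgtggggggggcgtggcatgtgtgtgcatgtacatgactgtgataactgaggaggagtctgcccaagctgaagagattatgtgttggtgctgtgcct
*Gdnf* (chr15:7813477-7813726, plus strand): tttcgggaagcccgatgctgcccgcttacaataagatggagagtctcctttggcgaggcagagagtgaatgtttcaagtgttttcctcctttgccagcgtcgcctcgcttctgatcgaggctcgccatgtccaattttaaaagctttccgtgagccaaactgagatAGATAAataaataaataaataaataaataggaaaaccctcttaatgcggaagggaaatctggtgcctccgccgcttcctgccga
*Ptgds* (chr2:25469750-25469999, minus strand): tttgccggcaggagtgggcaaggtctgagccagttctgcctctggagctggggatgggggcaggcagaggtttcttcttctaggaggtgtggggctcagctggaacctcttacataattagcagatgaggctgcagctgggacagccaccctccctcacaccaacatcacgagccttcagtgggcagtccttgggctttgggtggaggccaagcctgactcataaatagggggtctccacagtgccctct
*Cldn11* (chr3:31149670-31149919, plus strand): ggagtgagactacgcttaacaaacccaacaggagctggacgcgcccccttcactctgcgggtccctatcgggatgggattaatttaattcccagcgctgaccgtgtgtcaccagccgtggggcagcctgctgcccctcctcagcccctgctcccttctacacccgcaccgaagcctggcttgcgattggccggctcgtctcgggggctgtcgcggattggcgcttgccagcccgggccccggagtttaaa
On both strands, 4 motifs were searched, which do not overlap here: AAGGTCA for NR5A1, AACAAT and likewise ACAAAG for SOX proteins, and AGATAA for factors of the GATA family. Only 2 matches were found in the entries of 5 of the 10 members. *Cst9* held ACAAAG on the minus strand 152 bases before its start, where the printed letters are the reverse complement, and the second *Gdnf* entry held AGATAA on the plus strand 84 bases before its start. No match was found for *Ptgds*, *Cldn11*, *Hsd17b3* or the first *Gdnf* entry. Of 32841 RefSeq promoters of this length, 16.5% held ACAAAG, 9.99% AGATAA, 9.43% AACAAT, 4.08% AAGGTCA and 33.4% at least 1 of them, so matches of this kind are common. *Amh*, *Clu*, *Aard* and *Hsd17b1* are named only, and no sequence is given for *Mro*.

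Positions of the genes are in GRCm39. *Amh* lies on chromosome 10 (80641077 to 80643482, plus strand), with *Sf3a2* ending 317 bases before it on the same strand. *Ptgds* is on chromosome 2 (25352795 to 25362601, minus strand) and so is *Cst9* (148677039 to 148680659, plus strand). *Gdnf* (7840327 to 7867060) and *Aard* (51903503 to 51909204) share the plus strand of chromosome 15. *Clu* is on chromosome 14 (66190200 to 66218999, plus strand), where *Scara3* overlaps it on the other strand. *Mro* is on chromosome 18 (73992371 to 74054849, plus strand), where *Gm58427* overlaps it on the same strand, so its counts are uncertain to that extent. *Hsd17b1* is on chromosome 11 (100969181 to 100972336, plus strand), *Hsd17b3* on chromosome 13 (64206080 to 64237208, minus strand) and *Cldn11* on chromosome 3 (31203900 to 31218495, plus strand).

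The first question was how these products differed between XY and XX gonads at each time. The members were picked as Sertoli products, so an excess of calls higher in XY was built into the choice. In uncultured cells 9 of the 10 members were higher in XY, all but *Cldn11*, none was called lower, and in each of the 9 the XY libraries lay above the XX libraries without overlap. A gene was called when its Benjamini-Hochberg FDR over all genes tested, from edgeR's quasi-likelihood test, was below 0.05 and its fold change was at least 1.5, and 9.32% of all genes were called higher and 8.01% lower in XY at this time. All 4 libraries of one sex lay above all 4 of the other for 12.5% of all genes with XY above and 10.3% with XY below. With 24 h of DMSO 6 members were called higher, against 10.3% of all genes, and 1 was called lower, against 9.24%. The groups did not overlap for 6 members, all with XY above, against 12.8% of all genes (12.6% with XY below). With 72 h of DMSO 8 were called higher, against 10.8%, and none lower, against 9.47%. Here 7 did not overlap, with XY above, against 13.6% (13.4% with XY below). For the 2 counts of 0, no member was lower at an unadjusted p below 0.05 by edgeR, and DESeq2 called 0. The median log2 fold difference (XY minus XX) of the 10 members was 4.11, 2.74 and 1.94 in turn, and that of all genes 0.01 at each time. Since libraries are mixtures, fewer Sertoli cells and less RNA per Sertoli cell cannot be told apart in any of these values.

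**Figure D1:**
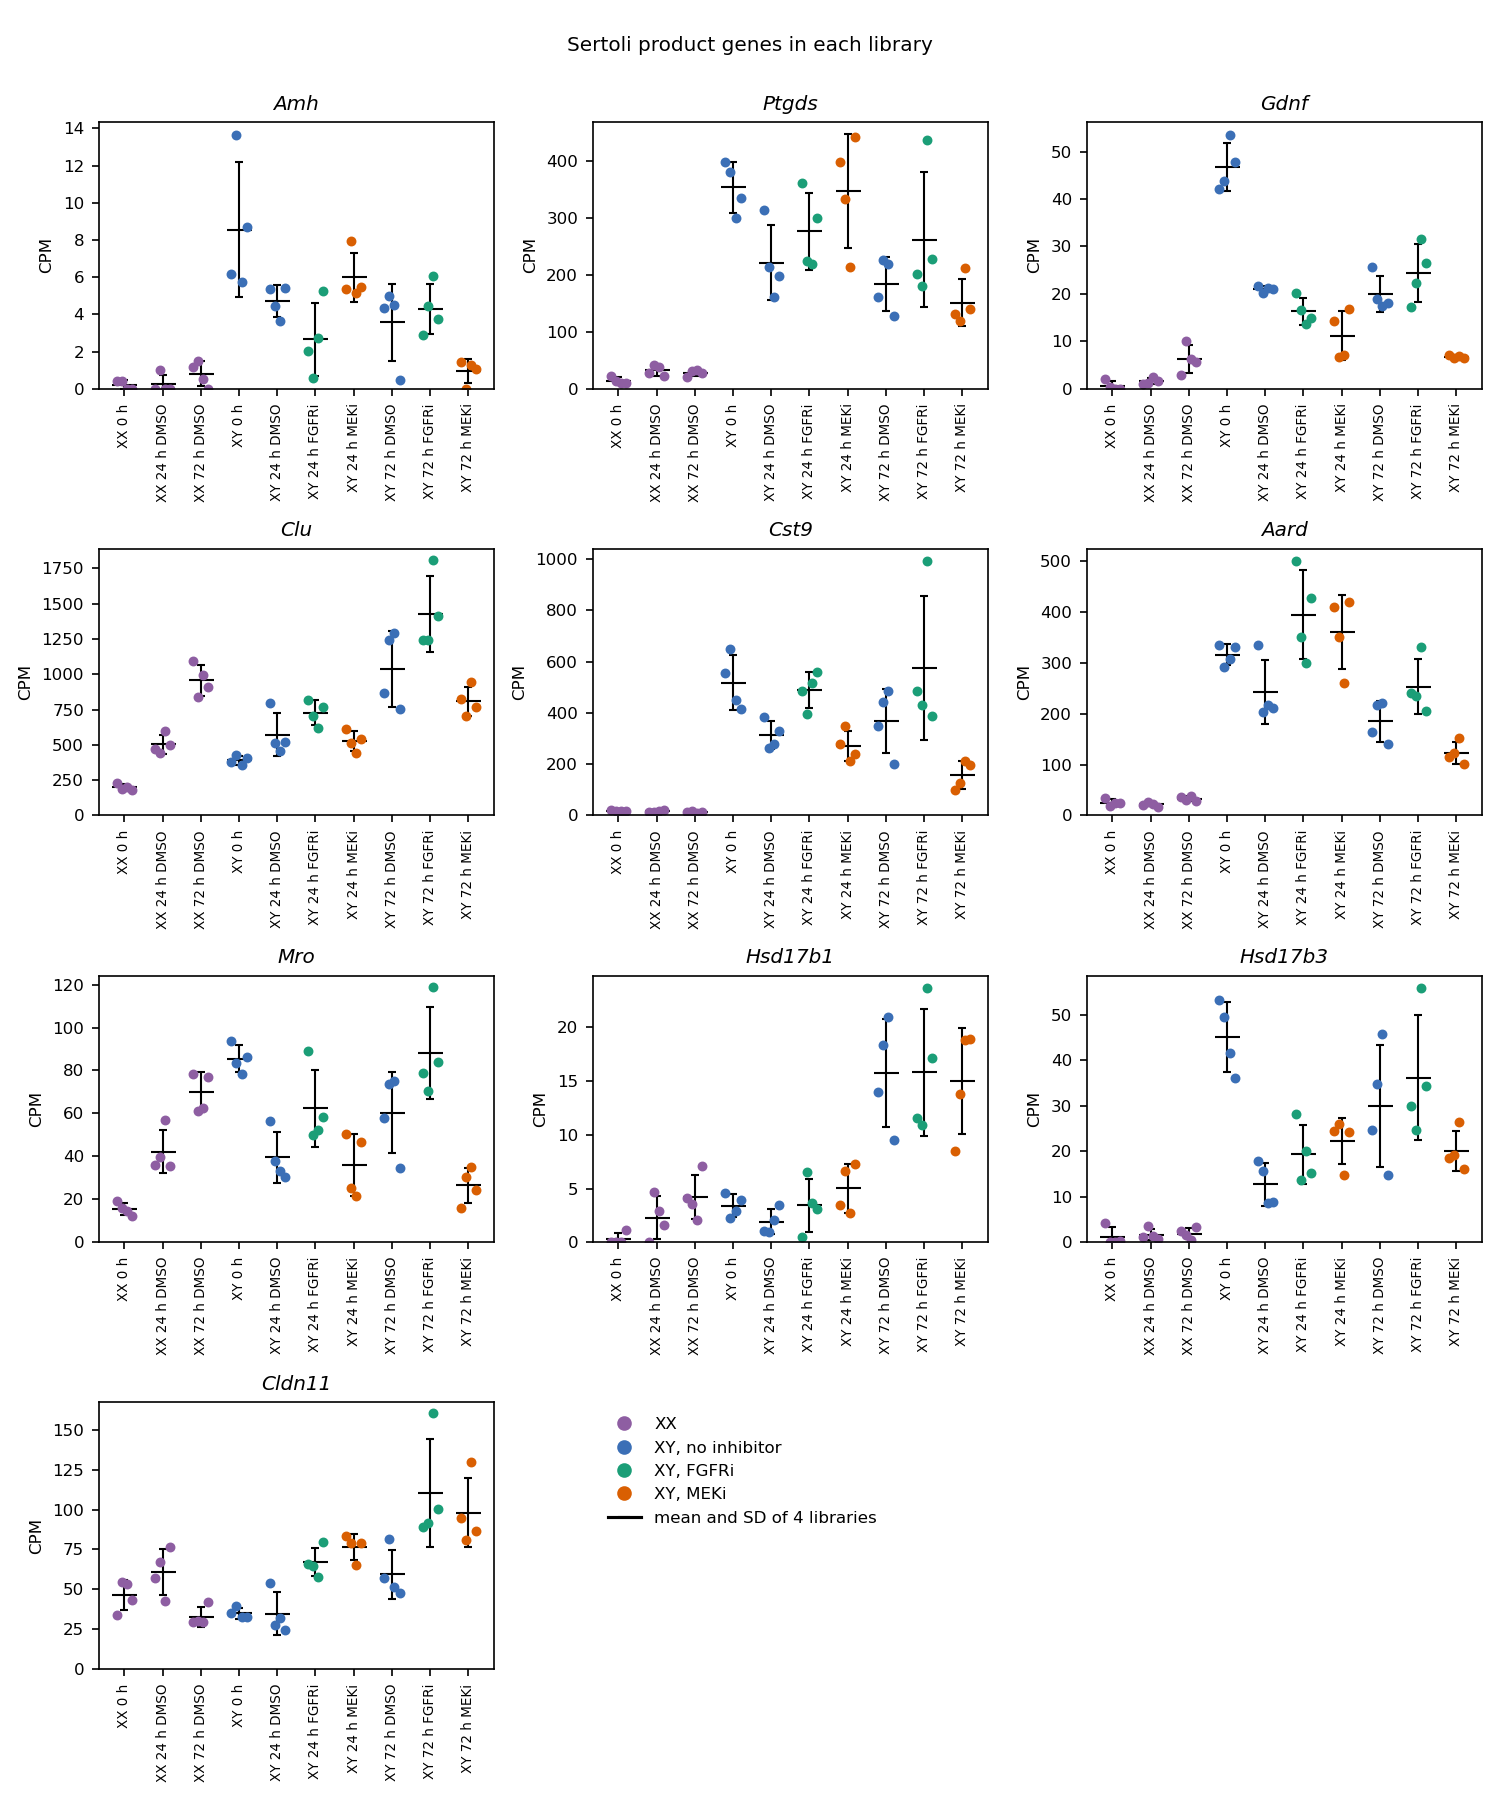
CPM of each of the 10 genes (vertical axis, linear, starting at 0) in the 10 groups; each point is 1 library, and the bars give mean and SD of 4. The XX libraries lie far below the XY libraries for *Cst9* and *Aard* in every group, while those of *Clu*, *Mro* and *Cldn11* overlap XY DMSO libraries at 24 h and those of *Gdnf* at 72 h span the MEKi libraries of that time.

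*Amh*, the hormone that removes the Müllerian ducts, was counted at a low level, so counts are given. In uncultured XY libraries M2, M3, M5 and M6 it had 12, 24, 12 and 20 counts, and in XX libraries F2 to F5 it had 1, 1, 0 and 0. The XY libraries were all far above the XX libraries, 68 counts against 2 in sum. Per total count the ratio was 34.9, with an exact counting interval of 9.29 to 294 (95%). At 24 h the XY DMSO libraries had 15, 18, 19 and 14 counts and the XX libraries 0, 4, 0 and 0. Only XX replicate F5 had any, and the ratio was 13.4 (exact counting interval 5 to 50.7). At 72 h the XY libraries had 13, 10, 9 and 1 counts and the XX libraries 2, 5, 1 and 0. XY replicate M6, with 1 count, lay inside the XX range. The log2 difference was 2.00 ± 0.665 (SE, FDR 0.0186 by edgeR), and the call was lost without XX replicate F11, XY replicate M2 or XY replicate M4, with differences of 1.63 to 2.65 over the libraries left out in turn. Intervals from counts cover counting error only and take each count as a separate molecule.

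*Gdnf* encodes a neurotrophic factor that Sertoli cells later use to maintain spermatogonial stem cells. Its XY levels before culture were 42.1, 43.8, 53.5 and 47.8 CPM, and the XX levels were 2.14, 0.442, 0 and 0 CPM. Of the 6 XX counts, 5 came from replicate F2, which also had 10 of the 11 XX counts of *Hsd17b3* at this time and 15.8 CPM of *Dhh* against 1.55 to 4.90 in the other XX libraries. The ratio of XY to XX counts was 65.2 (exact counting interval 29.7 to 179), and the fitted log2 difference of 5.96 became 7.79 without F2. At 24 h the XY levels were 21.8, 20.1, 21.3 and 21.0 CPM and the XX levels 1.05, 1.24, 2.42 and 1.58 CPM, on 3, 5, 5 and 4 counts. At 72 h the XY levels were 25.7, 18.9, 17.5 and 18.1 CPM and the XX levels 2.95, 10.1, 6.27 and 5.64 CPM. XY and XX libraries never overlapped, but the gap narrowed: the log2 difference was 5.96 ± 0.395 before culture, 3.77 ± 0.341 at 24 h and 1.59 ± 0.282 at 72 h (SE, FDR 1.03e-05 at 72 h by edgeR). The difference between the 72 h and the 24 h value, each taken within 1 pool, was −2.18 ± 0.476 (SE, FDR 0.00384), and 1.17% of all genes were called lower in that test, in which 1 member was called in each direction. Without XX replicate F7 at 72 h, the library with 10.1 CPM, it was −1.78 with FDR 0.0579.

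*Ptgds* encodes the lipocalin-type enzyme that makes prostaglandin D2. The XY levels before culture were 399, 381, 300.2 and 335 CPM, and the XX levels 23.1, 13.3, 10.9 and 10.2 CPM. At 24 h they were 314, 214, 161 and 198 CPM in XY and 27.0, 41.3, 37.7 and 22.1 CPM in XX. At 72 h they were 162, 227, 220 and 128 CPM in XY and 20.1, 31.6, 32.9 and 27.7 CPM in XX. XY stayed above XX in every library, by 4.59 ± 0.290, 2.77 ± 0.249 and 2.69 ± 0.263 on the log2 scale (SE, FDR of 3.7e-12 or less by edgeR). *Aard*, an alanine- and arginine-rich protein of Sertoli cells with no settled role, kept the same order. It had 291 to 336 CPM in XY before culture against 18.6 to 33.7 in XX, 203 to 336 against 16.6 to 27.0 at 24 h, and 140 to 221 against 27.7 to 38.6 at 72 h. Its XY to XX difference was 3.63 ± 0.199, 3.43 ± 0.193 and 2.49 ± 0.192 on the log2 scale.

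*Cst9*, also called testatin, encodes a secreted member of the cystatin family that is found in foetal Sertoli cells. The XY levels before culture were 555, 651, 451 and 417 CPM, and the XX levels 21.8, 18.1, 16.3 and 15.8 CPM. At 24 h they were 384, 264, 279 and 328 CPM in XY and 12.6, 15.1, 19.3 and 21.4 CPM in XX. At 72 h they were 348, 443, 485 and 202 CPM in XY and 13.6, 19.1, 9.92 and 14.6 CPM in XX. The groups lay far apart at every time, with log2 differences of 4.83 ± 0.279, 4.22 ± 0.269 and 4.63 ± 0.283 (SE, FDR of 8.27e-19 or less by edgeR), and at 72 h this was the widest gap among the members. The XX levels differed little between times, with means of 18.0, 17.1 and 14.3 CPM.

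Among the steroid enzymes, *Hsd17b3*, which reduces androstenedione to testosterone and which foetal Sertoli cells supply for the Leydig cells, had 53.3, 49.5, 41.6 and 36.1 CPM in uncultured XY libraries. The XX libraries F2 to F5 had 10, 0, 0 and 1 counts. The XY level at 24 h was 17.8, 15.7, 8.62 and 8.94 CPM, against 3, 14, 3 and 2 counts in XX libraries, and at 72 h it was 24.7, 34.8, 45.9 and 14.8 CPM, against 4, 5, 1 and 7 counts. No XX library reached an XY library of its time, and the log2 differences were 5.08 ± 0.467, 2.72 ± 0.448 and 3.95 ± 0.447 (SE, FDR of 2.37e-06 or less by edgeR). Over the libraries left out in turn they ran from 4.66 to 7.73, the highest without XX replicate F2, from 2.50 to 3.49, the highest without XX replicate F5, and from 3.68 to 4.33. *Hsd17b1*, which converts oestrone to oestradiol, was low in most groups and is given in counts. XY libraries had 9, 4, 6 and 9 counts before culture and 3, 4, 11 and 9 at 24 h, and XX libraries had 0, 0, 0 and 3 and then 0, 19, 6 and 4. Before culture the ratio of XY to XX counts was 9.58 (28 against 3 counts, exact counting interval 2.96 to 49.2), and the groups overlapped at 24 h. At 72 h the XY libraries had 42, 37, 42 and 20 counts and the XX libraries 7, 12, 4 and 15. Per library size these did not overlap, and the log2 difference was 1.88 ± 0.450 (SE, FDR 0.00088 by edgeR).

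*Clu* and *Mro* were higher in XY only before culture among these times by the test applied. *Clu* encodes clusterin, a secreted chaperone made abundantly by Sertoli cells, and *Mro* encodes maestro, a nucleolar protein named for its male-specific expression in the developing gonad. *Clu* had 378, 427, 356 and 405 CPM in uncultured XY libraries and 228, 190, 203 and 179 CPM in XX libraries, a log2 difference of 0.97 ± 0.150 (SE, FDR 7.7e-07 by edgeR). At 24 h it had 458 to 794 CPM in XY and 446 to 600 in XX, and at 72 h 752 to 1295 in XY and 836 to 1091 in XX, so the groups overlapped with differences of 0.18 (95% interval −0.10 to 0.47) and 0.12 (−0.17 to 0.40). *Mro* had 93.9, 83.6, 78.4 and 86.1 CPM in uncultured XY libraries and 19.2, 15.9, 14.7 and 12.4 CPM in XX libraries, a difference of 2.45 ± 0.253 (FDR 1.8e-11). At 24 h it had 30.3 to 56.7 CPM in XY and 35.6 to 57.1 in XX, and at 72 h 34.7 to 75.3 in XY and 61.1 to 78.6 in XX. The sexes overlapped at both times, with differences of −0.09 (−0.53 to 0.36) and −0.21 (−0.64 to 0.22).

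*Cldn11* encodes a claudin of the tight junctions between Sertoli cells. It was the member without an XY excess at the start. Uncultured XY libraries had 34.9, 39.3, 32.5 and 32.6 CPM and XX libraries 34.2, 54.8, 53.5 and 43.4 CPM. The groups overlapped, and the log2 difference was −0.40 (95% interval −0.84 to 0.03, FDR 0.19 by edgeR). At 24 h the XY libraries had 54.2, 27.8, 32.2 and 24.5 CPM and the XX libraries 57.1, 67.1, 42.6 and 76.7 CPM. XY was lower, by −0.83 ± 0.194 (SE, FDR 0.000653), although replicate M2 lay within the XX range. At 72 h the XY libraries had 57.3, 81.5, 51.4 and 47.6 CPM and the XX libraries 29.5, 29.8, 29.2 and 41.8 CPM. XY now lay above XX without overlap, by 0.86 ± 0.209 (SE, FDR 0.00103). The 72 h difference exceeded the 24 h difference by 1.70 ± 0.286 (SE, FDR 0.000109), and 0.873% of all genes were called higher in that test.

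**Figure D2:**
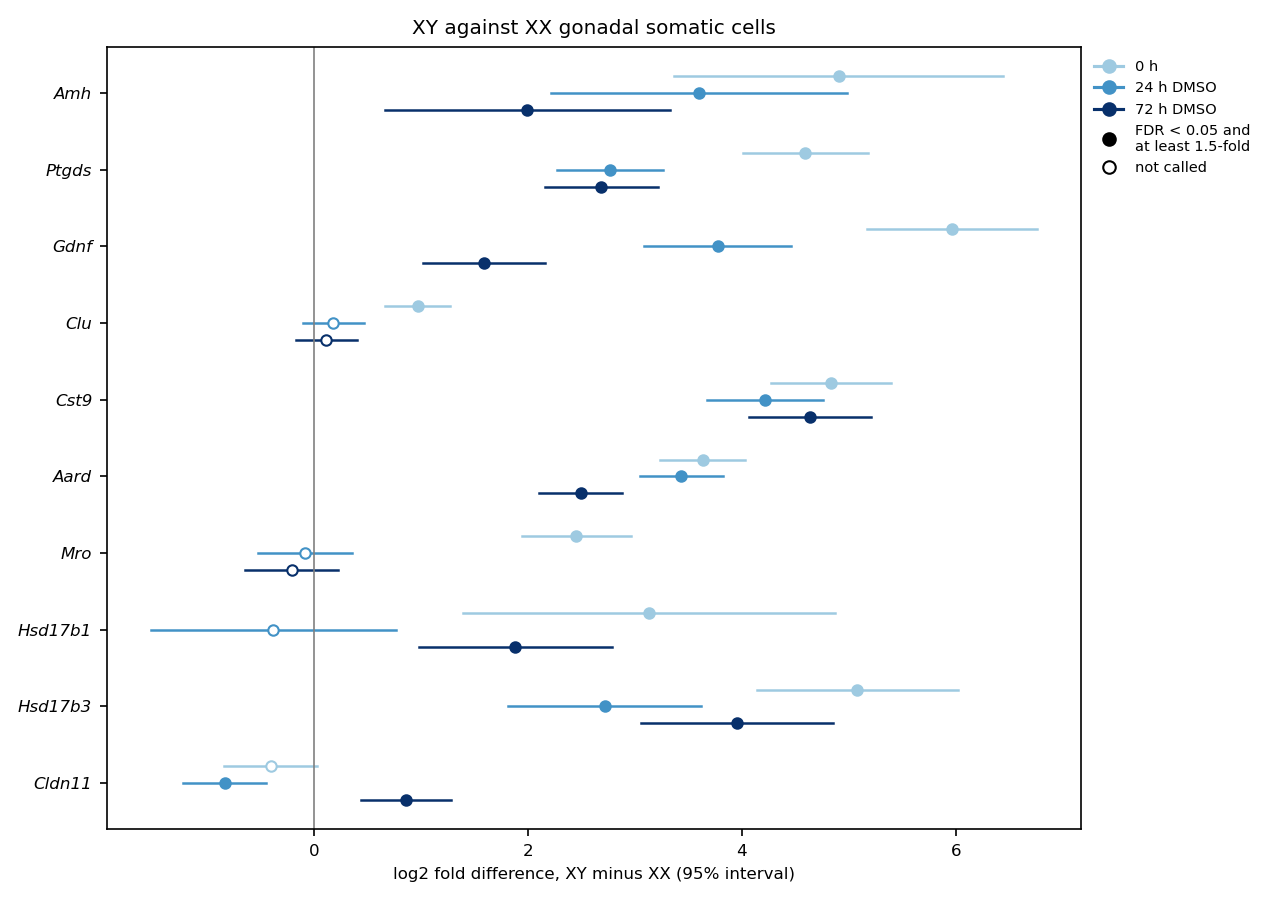
Log2 fold difference between XY and XX cells (horizontal axis, with 95% intervals) for each gene before culture and after 24 h or 72 h with DMSO; filled points were called. *Cst9*, *Ptgds*, *Aard* and *Hsd17b3* stay to the right at every time, the intervals of *Clu* and *Mro* span 0 in culture, and *Cldn11* moves from left to right.

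The next question was how levels changed over the first day of culture in each sex, since both groups lay in the same pool. A day of culture is also a day of development. No uncultured gonads of the later age were among the groups, so culture and age cannot be told apart. In XY gonads 5 of the 10 members fell, against 5.5% of all genes, and none rose, against 8.9%. The cultured libraries lay wholly below the uncultured ones for 5 members, against 10.6% of all genes, and wholly above for 1, against 11.5%. In XX gonads 4 rose, against 5.46%, and none fell, against 2.27%, with 2 members wholly above (8.85% of all genes) and none wholly below (5.8%). At an unadjusted p below 0.05 by edgeR 1 member was higher in XY and 0 were lower in XX, and DESeq2 called 0 in both cases. The uncultured and the 24 h libraries of XY also serve the comparisons between the sexes, and the 24 h libraries that with MEKi. *Hsd17b3* fell by 1.83 on the log2 scale in XY (SE 0.301, FDR 4.93e-06 by edgeR), *Gdnf* by 1.16 (SE 0.223, FDR 7.45e-05) and *Mro* by 1.12 (SE 0.213, FDR 6.07e-05). In each of these every cultured library lay below every uncultured one. *Cst9* fell by 0.73 (SE 0.208, FDR 0.00757), also without overlap. *Ptgds* fell by 0.68 (SE 0.213, FDR 0.0148) with replicate M2 at 24 h inside the uncultured range, and that call was lost without XY replicate M2 at 0 h or M4 at 24 h. *Clu* went up by 0.54 on the log2 scale, an FDR of 0.00392 but a fold of 1.46, under the 1.5-fold needed for a call. It passed without XY replicate M3, M4 or M5 at 24 h.

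In XX gonads *Mro* rose by 1.42 on the log2 scale (SE 0.262, FDR 7.3e-05 by edgeR), from 12.4 to 19.2 CPM before culture to 35.6 to 57.1 CPM at 24 h. *Clu* rose by 1.33 (SE 0.150, FDR 1.32e-09), from 179 to 228 CPM to 446 to 600 CPM. For both genes the cultured XX libraries lay wholly above the uncultured ones. *Ptgds* rose by 1.15 (SE 0.331, FDR 0.0142), with an overlap of replicate F2 before culture (23.1 CPM) and F9 at 24 h (22.1 CPM), and the call was lost without F3 or F5 at 0 h or F5 at 24 h. *Hsd17b1* was called higher (FDR 0.0398) on 29 against 3 counts, a ratio of 7.45 (exact counting interval 2.31 to 38.2), and 19 of the 29 came from F5. That call was lost without F2, F3 or F4 at 0 h or without F5 or F6 at 24 h. *Gdnf* in XX was not called, at 1.04 (FDR 0.348), and was called without F2 at 0 h, at 2.85 (FDR 0.0444).

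Tested against each other, the change of the first day was lower in XY than in XX for 5 members, against 3.51% of all genes, and higher for none, against 2.69%. No member was higher at an unadjusted p below 0.05 by edgeR, and DESeq2 called 0. The difference of the changes was −2.54 ± 0.337 for *Mro* (SE, FDR 2.54e-07 by edgeR), −1.83 ± 0.393 for *Ptgds* (FDR 0.00116) and −0.79 ± 0.207 for *Clu* (FDR 0.0101). These 3 passed without each library in turn. *Gdnf*, at −2.19 ± 0.702 (FDR 0.0452), lost the call without any 1 of 13 of the 16 libraries (−4.01 to −1.69, FDR up to 0.175). *Hsd17b1*, at −3.51 ± 1.06 (FDR 0.0311), had 3 counts in the uncultured XX libraries, all in F5, and lost the call without any 1 of 7 of the 16 libraries (−6.46 to −2.70). Over the first day other Sertoli genes also fell in XY: of 19 tested in a list of 20, 14 fell and 2 rose. *Cbln4* fell by 3.77, *Tesc* by 2.01, *Dhh*, which signals to Leydig cells, by 1.53 and *Sox10* by 1.51 on the log2 scale. *Sox9*, the main driver of Sertoli fate, fell by 1.05 and *Nr5a1*, which drives steroid and *Amh* gene expression, by 0.69. *Wt1* (−0.48, FDR 0.00032) and *Gata4* (−0.41, FDR 0.00479) were lower by less than 1.5-fold. Of 7 erythroid markers all 7 fell on the first day in both sexes, with a summed level of 14780 to 18670 CPM in uncultured and 2748 to 7945 CPM in cultured XY libraries, and of 6 proliferation genes 5 fell in XY. Their part in the changes of the members was not tested. With library totals in place of TMM scaling the median of all genes on the first day in XY moved by 0.13 on the log2 scale, and 77.6% in place of 61.8% of all calls were higher. For the difference between the sexes 53.9% in place of 43.4% were higher.

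**Figure D3:**
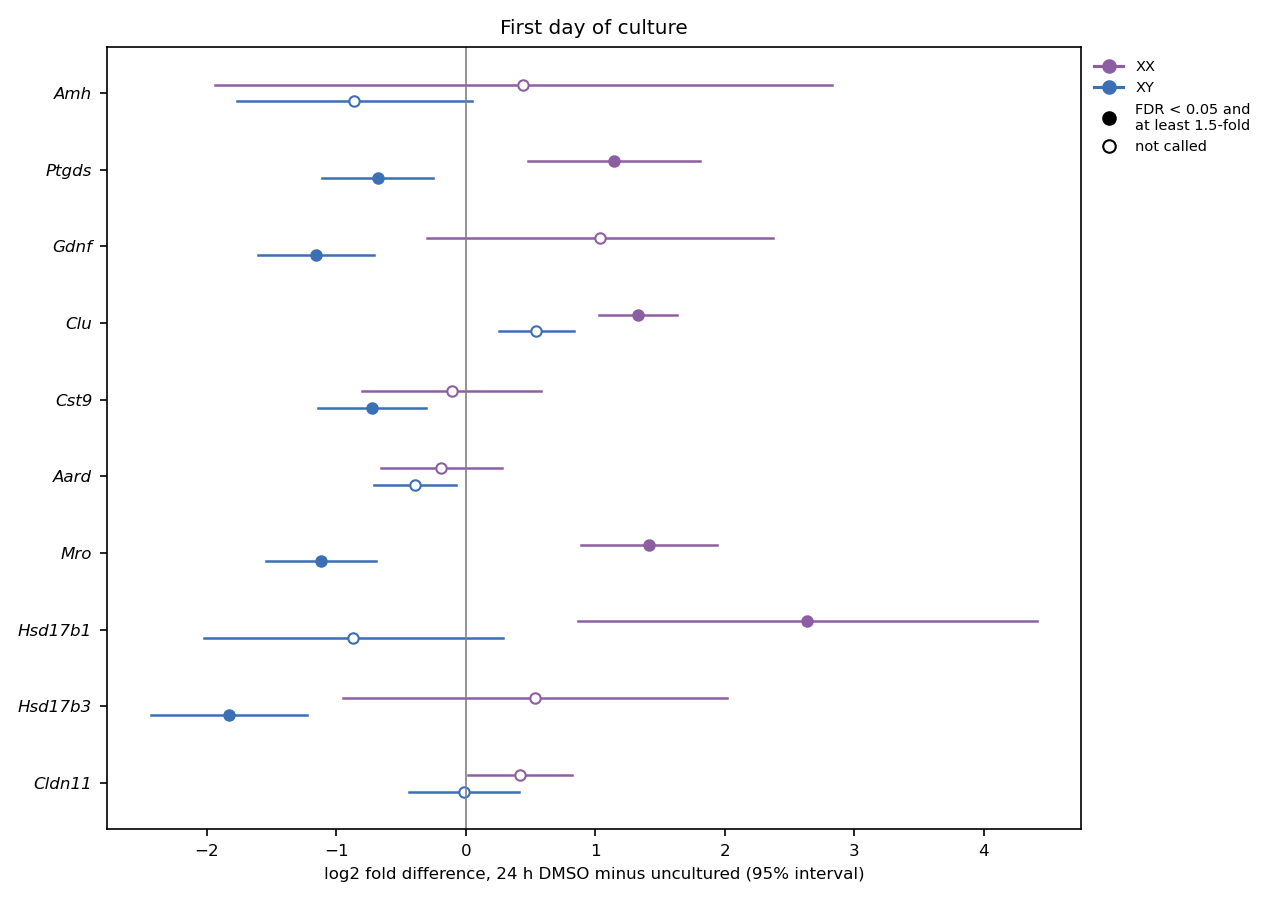
Log2 fold difference between 24 h of DMSO and uncultured cells (horizontal axis, with 95% intervals) in XX and XY; filled points were called. *Mro* and *Ptgds* lie on opposite sides of 0 in XX and XY, and *Hsd17b3* is the lowest point in XY.

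For the inhibitors, each was compared with DMSO in XY gonads, where the question was which products differed in level. Here too a change in the mixture of cells and a change in RNA per cell cannot be told apart. With MEKi for 24 h 1 member was called higher, against 1.29% of all genes, and 1 lower, against 1.98%. The groups did not overlap for the same pair of genes, against 4.07% of all genes with MEKi above and 4.77% with MEKi below. *Cldn11* had 83.1, 79.0, 65.1 and 78.9 CPM with MEKi and 54.2, 27.8, 32.2 and 24.5 CPM with DMSO. All MEKi libraries lay above all DMSO libraries, by 1.15 ± 0.196 on the log2 scale (SE, FDR 4.78e-05 by edgeR), and the call was kept without each library in turn, replicate M2 of MEKi included. *Gdnf* had 14.2, 6.64, 7.19 and 16.9 CPM with MEKi, below the 20.1 to 21.8 CPM with DMSO. It fell by 0.90 (SE 0.255, FDR 0.0282), and the call was lost without replicate M2 or M4 of either group (−1.16 to −0.70, FDR up to 0.133). *Aard* was 0.57 higher (FDR 0.0205), a fold of 1.49 and so not called, and *Ptgds* was 0.65 higher (FDR 0.0671). Both were called when replicate M2 of DMSO or M4 of MEKi was left out. *Amh*, *Clu*, *Cst9*, *Mro*, *Hsd17b1* and *Hsd17b3* were not called, with FDRs of 0.163 to 0.85. With MEKi *Amh* had 11, 12, 15 and 12 counts and *Hsd17b1* 7, 10, 8 and 16 counts.

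With MEKi for 72 h 4 members fell, against 4.19% of all genes, and 1 rose, against 2.29%. For 1 member the MEKi libraries lay wholly below DMSO, against 8.24% of all genes, and for none wholly above, against 8.93%. *Gdnf* had 7.11, 6.496, 6.91 and 6.47 CPM with MEKi against 25.7, 18.9, 17.5 and 18.1 CPM with DMSO. The MEKi libraries were close to each other and all below DMSO, by −1.58 ± 0.279 on the log2 scale (SE, FDR 9.12e-05 by edgeR). *Cst9* had 101, 125, 211 and 198 CPM with MEKi against 348, 443, 485 and 202 CPM with DMSO. Only DMSO replicate M6 reached into the MEKi range, and *Cst9* fell by 1.22 (SE 0.217, FDR 9.87e-05). *Mro* had 16.1, 30.6, 34.9 and 24.3 CPM with MEKi against 57.6, 73.6, 75.3 and 34.7 CPM with DMSO. Again M6 alone overlapped, and *Mro* fell by 1.15 (SE 0.233, FDR 0.000587). These 3 calls were kept without each library in turn.

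*Amh* had 3, 0, 4 and 2 counts in the MEKi libraries at 72 h and 13, 10, 9 and 1 counts in the DMSO libraries. It fell by 1.90 (SE 0.648, FDR 0.0462 by edgeR), with M6 of DMSO below the highest MEKi library, and the call was lost without any 1 of 7 of the 8 libraries (−2.25 to −1.48, FDR up to 0.156). *Cldn11* had 94.8, 81.0, 130 and 86.8 CPM with MEKi, against 57.3, 81.5, 51.4 and 47.6 CPM with DMSO. It rose by 0.73 (SE 0.189, FDR 0.00704) with 1 DMSO library inside the MEKi range, and was 0.56 (FDR 0.0706) without M4 of MEKi. *Aard* was at −0.58 (FDR 0.0161), just under 1.5-fold, and was called without M2 or M6 of DMSO or M4 of MEKi. *Ptgds*, *Clu*, *Hsd17b1* and *Hsd17b3* were not called, at −0.28 (95% interval −0.72 to 0.17), −0.36 (−0.65 to −0.08), −0.06 (−0.83 to 0.72) and −0.55 (−1.16 to 0.06).

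With FGFRi for 72 h 1 member was called, *Cldn11*, against 0.866% of all genes higher, and none was called lower, against 0.939%. At an unadjusted p below 0.05 by edgeR 6 members were higher and 0 lower, and DESeq2 called 1 higher and 0 lower. The groups did not overlap for 1 member, with FGFRi above, against 3.75% of all genes (3.65% with FGFRi below). *Cldn11* had 89.2, 91.6, 160 and 100.2 CPM with FGFRi, all above the 47.6 to 81.5 CPM with DMSO. It rose by 0.90 (SE 0.188, FDR 0.00342 by edgeR), and without FGFRi replicate M5, the library with 160 CPM, the difference was 0.66 (FDR 0.0915). The other 9 members had differences of 0.03 to 0.64 and FDRs of 0.066 to 0.986. *Amh* had 5, 11, 17 and 9 counts with FGFRi. For *Amh* the interval was −0.74 to 1.31, for *Gdnf* −0.20 to 0.76 and for *Cst9* 0.22 to 1.06, which is the range of changes these libraries leave possible. *Cst9* was called higher without M5 of DMSO or without M4 or M6 of FGFRi. Over the libraries left out in turn its difference ran from 0.235 to 0.798, with FDRs up to 0.764. Without both DMSO M6 and FGFRi M5 the *Cst9* difference was 0.03 (FDR 0.985 by edgeR). Both inhibitors at 72 h were set against the same 4 DMSO libraries.

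**Figure D4:**
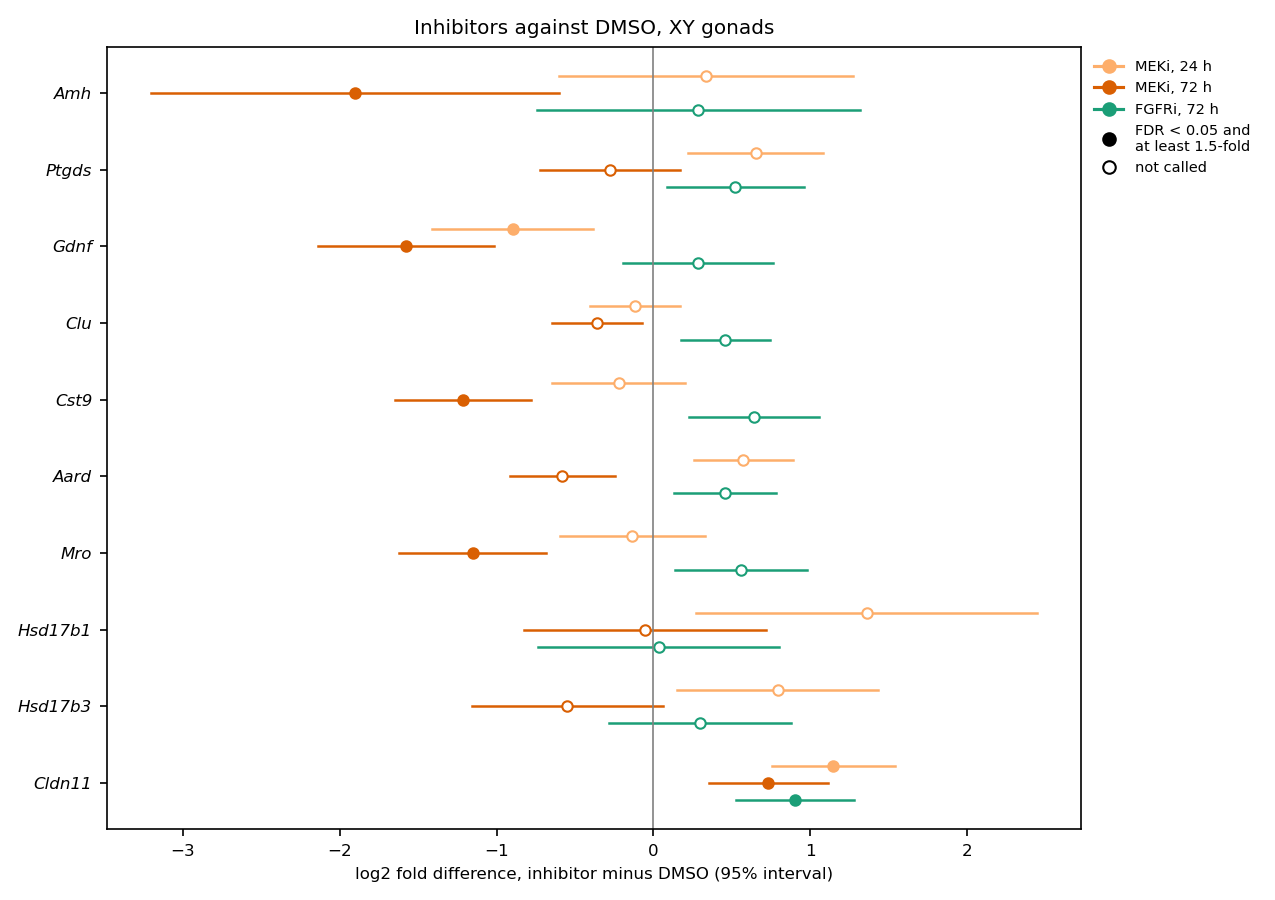
Log2 fold difference between inhibitor and DMSO in XY cells (horizontal axis, with 95% intervals) for MEKi at 24 h and 72 h and FGFRi at 72 h; filled points were called. *Cldn11* is to the right of 0 in all 3, and the filled points to the left are *Gdnf* with MEKi at both times and *Cst9*, *Mro* and *Amh* with MEKi at 72 h.

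Set directly against FGFRi at 72 h, 7 members were lower with MEKi, against 4.69% of all genes, and in 6 of the 7 the groups did not overlap, against 7.74% of all genes. None was higher, against 1.74% of all genes, or wholly above, against 7.09%. At an unadjusted p below 0.05 by edgeR 0 members were higher, and DESeq2 called 0. *Gdnf* was lower by −1.86 ± 0.274 on the log2 scale (SE, FDR 2.16e-06 by edgeR), *Cst9* by −1.86 ± 0.217 (FDR 1.2e-08), *Mro* by −1.71 ± 0.227 (FDR 2.17e-07), *Aard* by −1.04 ± 0.165 (FDR 8.45e-06) and *Clu* by −0.82 ± 0.142 (FDR 4.15e-05). FGFRi levels were 17.3, 22.3, 31.5 and 26.4 CPM for *Gdnf* and 487, 432, 992 and 387 CPM for *Cst9*. *Amh*, at −2.19 ± 0.628 (FDR 0.0166), and *Ptgds*, at −0.80 ± 0.219 (FDR 0.0119), lost the call without M5 of FGFRi or M3 of MEKi, with *Amh* at −1.76 to −2.43 and *Ptgds* at −0.42 to −1.02 over the libraries left out. *Cldn11* was called higher than DMSO with each inhibitor at 72 h, though neither call was kept without each library in turn. Between the inhibitors it differed by −0.17 (95% interval −0.53 to 0.19). The effect of MEKi at 72 h minus that at 24 h passed the test for *Aard*, at −1.16 ± 0.229 (FDR 0.00237, against 0.853% of all genes lower and 0.555% higher). The other members, all negative in this test from −2.24 to −0.24, did not pass.

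At 24 h FGFRi and DMSO were in different pools, so their levels are given without a comparison. *Amh* had 4, 1, 6 and 12 counts with FGFRi and 15, 18, 19 and 14 with DMSO. *Gdnf* had 20.2, 16.7, 13.7 and 14.9 CPM with FGFRi and 20.1 to 21.8 CPM with DMSO. *Cldn11*, the gene that was higher with both inhibitors at 72 h, had 66.2, 64.9, 57.9 and 79.5 CPM with FGFRi and 24.5 to 54.2 CPM with DMSO. *Cst9* had 394 to 560 CPM with FGFRi and 264 to 384 with DMSO, *Clu* 622 to 820 and 458 to 794, *Ptgds* 219 to 362 and 161 to 314, and *Aard* 301 to 501 and 203 to 336. *Mro* had 50.01 to 88.9 CPM with FGFRi and 30.3 to 56.7 with DMSO, *Hsd17b3* 13.7 to 28.3 and 8.62 to 17.8, and *Hsd17b1* 1 to 11 counts and 3 to 11 counts.

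A pair of libraries at 72 h stood apart in several members, DMSO M6 on the low and FGFRi M5 on the high side. The summed level of 20 other Sertoli genes was 1962 CPM in M6 and 2114 to 2959 CPM in the other DMSO libraries, and 4181 CPM in M5 and 2643 to 3320 CPM in the other FGFRi libraries. MEKi libraries had 1785 to 2503 CPM. XX DMSO libraries at 72 h had 1520 to 1721 CPM, so much of this sum is not particular to Sertoli cells. With M6 and M5 both left out, a choice made after seeing the data, 8 members were still called higher in XY than in XX at 72 h, and MEKi against DMSO gave 1 higher and 5 lower, with *Aard* at −0.69 (FDR 0.00386 by edgeR) now called. FGFRi against DMSO gave none, with *Cldn11* at 0.57 (FDR 0.27), MEKi against FGFRi gave 5 lower in place of 7, and 5 in place of 1 member passed the test of the MEKi effect between 72 h and 24 h.

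**Figure D5:**
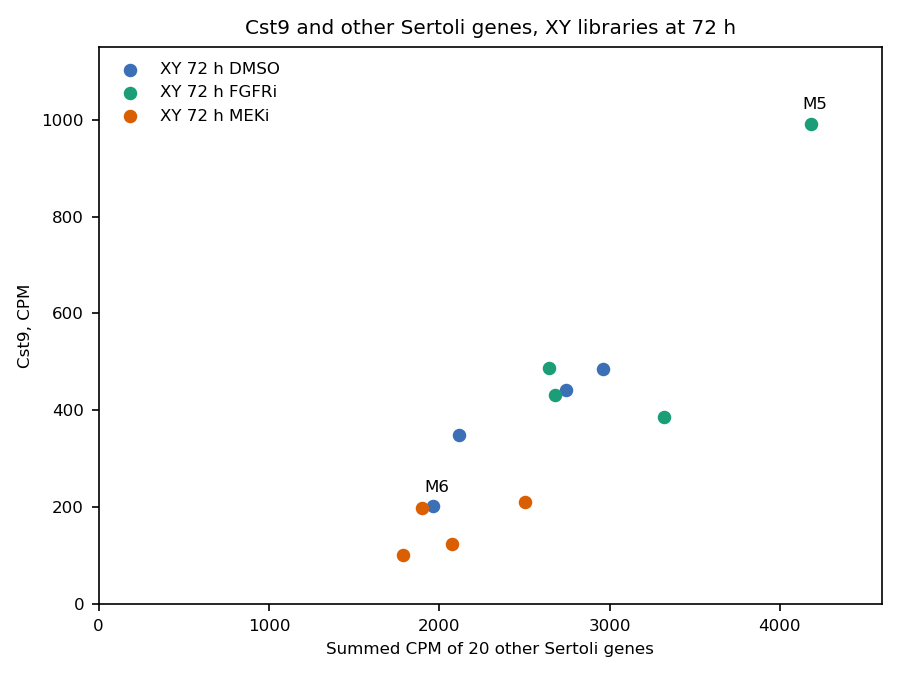
*Cst9* (vertical axis, CPM) against the summed CPM of 20 other Sertoli genes (horizontal axis) in the 12 XY libraries at 72 h; each point is 1 library. The MEKi libraries have 101 to 211 CPM of *Cst9*, DMSO M6 lies beside them at 202 CPM, and FGFRi M5 is the highest point at 992 CPM.

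The same 20 genes show what else moved in the Sertoli programme. *Etv5* is also counted below among the targets of MAPK signalling, and *Sox9*, *Sox8* and *Nr0b1* among the regulators of the *Amh* promoter. Of 19 tested, 15 were higher in XY before culture, 13 at 24 h and 13 at 72 h, and 1, 2 and 3 were lower. *Sox9* was higher in XY by 2.66 ± 0.195, 2.16 ± 0.195 and 1.80 ± 0.195 on the log2 scale (SE), and before culture *Tesc* was higher by 6.35 and *Cbln4* by 5.74. *Nr0b1*, a repressor of steroid gene expression, was lower in XY, at −1.93 before culture. With MEKi at 72 h 9 of the 19 fell and 2 rose. *Etv5* fell by 2.09, *Col9a3* by 2.02, *Tesc* by 1.51 and *Cyp26b1*, which breaks down retinoic acid, by 1.498 (FDRs of 0.000127 or less by edgeR), and the 2 that rose were *Rhox8* and *Nr0b1*. With FGFRi at 72 h 1 rose, *Vnn1*, by 0.92 (FDR 0.0112), and none fell. At an unadjusted p below 0.05 by edgeR 7 were higher and 0 lower, and DESeq2 called 1 and 0. With MEKi at 24 h 2 fell, *Etv5* and *Cyp26b1*, and 2 rose, *Rhox8* and *Dmrt1*. The median of the 19 log2 differences was −0.65 with MEKi and 0.44 with FGFRi at 72 h, where those of the 10 members were −0.57 and 0.46 and that of all genes 0.00 for both. Without DMSO M6 and FGFRi M5 the medians with FGFRi were 0.15 for the 19 and 0.06 for the members, with 0 of the 19 called, and those with MEKi were −0.80 and −0.73.

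Of the 6 regulators listed for the *Amh* promoter, *Sox9* and *Sox8* were higher in XY at every time and *Wt1* and *Nr0b1* lower. With MEKi at 72 h *Sox9* fell by 0.61 (SE 0.184, FDR 0.0229 by edgeR) and *Sox8* by 1.00 (SE 0.309, FDR 0.027), and *Nr0b1* rose by 0.92 (SE 0.225, FDR 0.0048). *Nr5a1* (0.25, FDR 0.0987), *Wt1* (−0.27, FDR 0.0878) and *Gata4* (−0.12, FDR 0.563) were not called there. The *Sox9* fall was just past the 1.5-fold needed for a call. Like that of *Amh*, it is a fall of RNA in mixed somatic cells, and RNA per Sertoli cell was not tested. By immunofluorescence the paper found robust SOX9 and AMH protein in XY gonads with either inhibitor. Its flow cytometry showed no reduction of SOX9 intensity with either inhibitor. On the side of the AMH receptor, *Amhr2*, the receptor itself, was lower in XY, at −1.08, −1.69 and −1.84, and rose with FGFRi at 72 h by 0.61 (SE 0.154, FDR 0.0197). *Acvr1*, one of the type I receptors, was higher in XY at every time, by 1.09, 1.21 and 0.65.

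Of 5 genes of the GDNF receptors and family tested in a list of 6, *Gfra2* was higher in XY at every time, by 1.36, 2.81 and 2.01 on the log2 scale, and *Nrtn*, a GDNF relative, was lower, at −1.22, −2.85 and −1.55. *Gfra3*, the artemin receptor, rose with MEKi at 72 h by 1.21 (SE 0.394, FDR 0.0364 by edgeR), and *Gfra1* and *Ret*, which receive GDNF itself, were not called with an inhibitor. In the list for prostaglandin D2 only *Ptgs1*, the upstream cyclooxygenase, had enough counts to be tested among 5 genes. It was higher in XY at 24 h by 1.12 and at 72 h by 1.39, and fell with FGFRi at 72 h by 0.82 (FDR 0.0227). *Ptgds* itself was not called in that comparison.

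Among 6 other 17β-hydroxysteroid dehydrogenases, *Hsd17b2*, which inactivates oestradiol and testosterone, had 6.12 CPM in uncultured XX cells and was at 0 in the uncultured XY libraries. Of 3 cystatin relatives tested in a list of 5, *Cst12* went the other way from *Cst9*, lower in XY at −3.09, −4.16 and −2.94 on the log2 scale, and *Cst8* was higher in XY by 0.87 before culture and lower, at −0.98 and −1.35, in culture. *Cst8* rose with FGFRi at 72 h by 0.64 (FDR 0.0436). *Cst12* and *Cst8* were both lower with MEKi than with FGFRi at 72 h, at −1.32 and −0.88. Of 7 tight junction genes tested in a list of 12, *Tjp1*, a scaffold of the junction, fell with MEKi at 72 h by 0.72 (FDR 0.00514 by edgeR), *Cldn5*, an endothelial claudin, by 2.43 (FDR 0.0268), and *Cldn10* rose by 1.496 (FDR 0.0323).

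Markers of other cell types in these mixed libraries also moved with the inhibitors, and their part in the members' values was not tested. All 6 endothelial genes fell with MEKi at 24 h, with a summed level of 49.2 to 66.4 CPM against 174 to 233 CPM with DMSO, and 4 of 6 fell at 72 h (43.7 to 63.5 against 69.0 to 119 CPM). All 5 macrophage genes tested fell with FGFRi at 72 h and 4 with MEKi, with 10.0 to 22.7, 20.5 to 30.8 and, for DMSO, 40.0 to 106 CPM. Of 5 foetal Leydig cell genes 4 rose with MEKi at 72 h (842 to 1323 against 409 to 614 CPM) and 1 with FGFRi. Of 5 germ cell genes 3 rose with MEKi at 24 h (235 to 433 against 98.2 to 145 CPM). Of 7 targets of MAPK signalling 5 fell with MEKi at 24 h and 7 at 72 h, *Spry4* by 3.33 on the log2 scale at 72 h, and 1, *Spred1*, fell with FGFRi. Pre-granulosa genes, the ovarian counterpart, were lower in XY for 7, 7 and 6 of 7 at the 3 times. With MEKi at 24 h *Irx3* and *Runx1* rose, by 1.30 and 1.12 (FDRs 0.0169 and 0.0133 by edgeR), and with FGFRi at 72 h *Rspo1* rose by 0.66 (FDR 0.000962) and *Wnt4* fell by 0.95 (FDR 7.44e-06). The paper reported no significant change of *Rspo1* or *Wnt4* with FGFRi, although its fold changes for both had the same directions as here. The published method, which tests against the 1.5-fold threshold itself, called 0 of all genes here with FGFRi at 72 h. With MEKi at 72 h none was called by edgeR or DESeq2, with 3 higher and 1 lower at an unadjusted p below 0.05 by edgeR. *Rspo1* was 0.58 higher there (FDR 0.00102), just under 1.5-fold and so not called. It differed between MEKi and FGFRi by −0.08 (FDR 0.744). *Foxl2* and *Wnt4* were higher with MEKi than with FGFRi, by 0.77 and 0.68 (FDRs 0.0334 and 0.000138). The pre-granulosa values at 72 h were not computed without DMSO M6 and FGFRi M5. Of 3 duct epithelium genes tested 1, 2 and 2 were lower in XY. Of 6 interstitial genes 5, 6 and 6 were higher in XY, and with MEKi at 72 h 1 rose and 1 fell.

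Across the 40 libraries the members followed each other to different degrees. Over the 45 pairs Pearson's r of log2 CPM was −0.01 to 0.97 with a median of 0.48, and after removing each group's mean −0.06 to 0.78 with a median of 0.38. *Ptgds* and *Aard* were the most alike (0.97, and 0.78 within groups), and *Gdnf* and *Cldn11* the least (−0.01, and −0.06 within groups). The libraries share their groups and pools and are mixtures of the same cell types, so these are descriptions over 40 points that are not independent. Among 12972 other genes with a mean of at least 5 CPM, the 8 most like the mean profile of the members were *Mmd2* (r 0.97), *Defb19* (0.95), *Me1*, *Cited1*, *Trim47*, *Padi2*, *Map3k21* and *Mef2c* (0.94 or 0.95 each). Of single members, *Cst9* was most like *Padi2* (0.97), *Aard* like *Dhh* (0.96), *Ptgds* like *Me1* (0.96), *Hsd17b3* like *Mmd2* (0.95), *Gdnf* like *Smtnl2* (0.93) and *Clu* like *Srebf1* (0.91). *Mro* was most like *Spint2* (0.89), *Amh* like *Myo18a* (0.85), *Cldn11* like *Fstl3* (0.84) and *Hsd17b1* like *Fabp3* (0.84).

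When the 10 groups were put in order of their mean level, 11 of the 90 neighbouring pairs over all members were apart, meaning that the mean less the SD of the higher group exceeded the mean plus the SD of the next. *Ptgds*, *Gdnf*, *Clu* and *Aard* had 2 such gaps each, *Cst9*, *Hsd17b1* and *Hsd17b3* had 1, and *Amh*, *Mro* and *Cldn11* had none. The highest group mean exceeded the lowest 40.2 times for *Cst9*, 24.7 for *Ptgds*, 17.9 for *Aard*, 7.13 for *Clu*, 5.65 for *Mro* and 3.39 for *Cldn11*. For *Amh*, *Gdnf*, *Hsd17b1* and *Hsd17b3* the lowest group had few counts, and no such ratio is given. In this order pool and time are mixed, so neighbours from different pools cannot be told apart by treatment.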

How the data were processed

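The deposited table gives raw gene counts as whole numbers in 40 library columns, all of which were used. The authors made them with scPipe and Rsubread: reads were aligned to GRCm39, assigned to GENCODE exons with the strand in use, and UMIs were counted once per gene in each of 2 lanes, which were added. These steps are described for germ cell libraries and are taken to be the same for the somatic ones. The annotation release is not given in the sources used here, and names and positions come from GENCODE M39, which matched 40391 of 42422 identifiers.

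For the tests, edgeR 4.0.16 (R 4.3.3) was given the counts of every gene. The filter filterByExpr, told the groups, left 15125 genes. After TMM scaling, the quasi-likelihood model had a mean for each of the 10 groups and used all 40 libraries. Calls needed a Benjamini-Hochberg FDR below 0.05 and a fold change of at least 1.5. Standard errors were computed from the fold change and its F statistic. Replicates are pools of gonads, with 4 such libraries a group. The p-values rest on the spread between replicate libraries, estimated over all 10 groups together and with information shared between genes. No library copied another: the counts of the 60 pairs of replicates gave chi-squares of 1.93 to 7.69 times their degrees of freedom. Alternatives included the published choice of limma (3.58.1; voomWithQualityWeights, then treat) and DESeq2 1.42.0. The procedure was tested on simulated data.

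All 10 members are named. Of other lists, genes called are named, up to 4 per list and comparison with the largest change first, and *Sox9*, *Nr5a1*, *Wt1* and *Gata4* always. The most alike genes are the 8 with the highest correlation with the mean member profile and 1 for each member. The members and lists were chosen with earlier results of these data known. Counts in place of CPM or beside it are given for most low levels, and some low levels are given in CPM only.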

Additional observations from a re-analysis of the deposited data

Results flagged for a closer look

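In 100 groups of 4 libraries, 10 had 1 library far from the others by Dixon's criterion, which chance passes in about 1 in 20 groups. For *Amh* these were XX replicate F5 with DMSO at 24 h (0.990 CPM, the others at 0), MEKi replicate M2 at 24 h (7.97 CPM, the others 5.14 to 5.47) and XY replicate M6 with DMSO at 72 h (0.476 CPM, the others 4.33 to 4.97). That MEKi library had 12 counts, inside the 11 to 15 counts of its group. FGFRi replicate M5 at 72 h was high in *Cst9* (992 CPM, the others 387 to 487) and in *Cldn11* (160 CPM, the others 89.2 to 100.2). XY replicate M2 with DMSO at 24 h was high in *Aard* (336 CPM, the others 203 to 217). XX replicate F5 before culture was the only one with *Hsd17b1* (1.13 CPM), XX replicate F2 before culture was high in *Hsd17b3* (4.27 CPM, the others at most 0.377), and MEKi replicate M4 at 24 h was low in it (14.7 CPM, the others 24.2 to 25.9). XX replicate F11 at 72 h was high in *Cldn11* (41.8 CPM, the others 29.2 to 29.8).

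For 8 results an effect differed between groups by edgeR's test of the difference itself. The change of the first day of culture differed between XY and XX on the log2 scale by −1.83 for *Ptgds*, −2.19 for *Gdnf*, −0.79 for *Clu*, −2.54 for *Mro* and −3.51 for *Hsd17b1*. The effect of MEKi on *Aard* at 72 h differed from that at 24 h by −1.16. The XY to XX difference at 72 h differed from that at 24 h by −2.18 for *Gdnf* and by 1.70 for *Cldn11*.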

How the results depend on the processing

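Of 56 called differences of members, 56 stayed called with RLE scaling, 54 each with DESeq2, with all genes kept, with genes of 1 CPM or more in 4 libraries, or with library totals, 53 with only the groups compared, 47 with the replicate number as a block, 34 with glmTreat and 27 with voom and treat, both of which test against the 1.5-fold threshold itself.

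Counts of members called moved as follows. For XY above XX at 72 h the 8 higher became 5 with the replicate block, and at 24 h the 1 lower became 0 with glmTreat and with voom. For MEKi at 24 h the 1 higher became 3 without a filter, 2 with only the groups compared and 0 with glmTreat and voom, and the 1 lower became 0 with both. For MEKi at 72 h the 1 higher became 0 and the 4 lower became 1 with both. For FGFRi at 72 h the 1 higher became 2 without a filter and 0 with glmTreat, with voom and without DMSO M6 and FGFRi M5. For MEKi against FGFRi the 7 lower became 3 with glmTreat and voom. For the first day, in XY 0 higher became 1 with library totals and 5 lower became 3 with glmTreat and 2 with voom, and in XX 4 higher became 2 and 1. For the first-day difference between the sexes 5 lower became 2 with glmTreat, 1 with voom and 3 with the replicate block. For the MEKi effect between times 1 lower became 5 without a filter, 0 with glmTreat and voom, 2 with the block and 5 without M6 and M5. For the XY to XX difference between 72 h and 24 h 1 higher became 2 without a filter and with DESeq2 and 0 with voom and with the block, and 1 lower became 2 with library totals, with either other filter and with only the groups compared, and 0 with voom and with the block. The cause was not tested. Replicate numbers were not used as pairs in the main test. Deviations of same-numbered libraries correlated at −0.156 to 0.116, which does not exclude a pairing.

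Leaving out 1 library at a time gave 2 to 4 higher on the first day in XX, 0 to 1 higher and 4 to 6 lower in XY, 3 to 6 lower for the difference between the sexes, 1 to 3 higher and 0 to 1 lower for MEKi at 24 h, 0 to 1 and 3 to 5 at 72 h, 0 to 2 higher for FGFRi, 5 to 8 lower for MEKi against FGFRi, 1 to 4 lower for the MEKi effect between times, 1 to 2 higher and 0 to 2 lower for the XY to XX difference between times, and 7 to 8 higher for XY at 72 h. A pair of uncalled values changed sign without XX replicate F5 at 24 h, *Hsd17b3* on the first day in XX (−0.24, range −0.24 to 3.18) and *Amh* in the first-day difference (1.58, range −1.75 to 1.58). Over all genes, the calls were 1388, 1582 and 1490 with glmTreat and 936, 1156 and 1087 with voom for XY against XX before culture, at 24 h and at 72 h, in place of 2622, 2961 and 3067. They were 157 and 88 in place of 495 for MEKi at 24 h, 132 and 75 in place of 979 at 72 h, 5 and 0 in place of 273 for FGFRi, 208 and 90 in place of 972 for MEKi against FGFRi, and 688 and 421 in place of 2178 and 356 and 214 in place of 1169 for the first day in XY and XX. For the 3 differences of differences they were 259 and 119 in place of 938, 8 and 1 in place of 213 (350 without a filter, 80 with the block), and 55 and 22 in place of 309 (64 with the block). Depth limits *Amh* and *Hsd17b1*, and in XX cells *Gdnf* and *Hsd17b3*, most.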
